A study of Mus musculus with 6 samples.

Results

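Lsd1 occupancy is described here for 7 mouse genes of the Six-Eya families, Six2, Six4, Six5, Eya1, Eya2, Eya3 and Eya4, of 26180 genes with a curated RefSeq transcript. Lsd1 ChIP-seq peaks were counted for a gene when the peak centre lay within the RefSeq span of the gene on mm10 or within 10 kb on either side, called the window of the gene here. By this rule 62 of the 95852 peaks in the 3 deposited peak lists fell in the window of a member, 25 of 43426 peaks of the myogenic list, 14 of 18893 of the adipogenic list and 23 of 33533 of the LSD1(OE) list. The rule used gene names and positions and no measured value, although the genes were picked with earlier results of these data known.

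All cells were C2C12, a mouse myoblast line that forms myotubes in low serum and lipid-laden cells in adipogenic medium, and all were fixed on day 1 of differentiation with 1% PFA for 6 min. Wild-type cells in myogenic medium had 2% horse serum. Wild-type cells in adipogenic medium had 10% FCS with isobutylmethylxanthine, indomethacin, dexamethasone, insulin, T3 and rosiglitazone. LSD1(OE) cells had the same adipogenic medium and carried a tetracycline-controlled Flag-LSD1 transgene, introduced by lentivirus under G418 selection and induced with doxycycline before and during differentiation. The descriptions of the wild-type cells list no doxycycline, so the LSD1 level, the engineered line and the doxycycline cannot be told apart. Chromatin was precipitated with an antibody against the C-terminus of Lsd1, a lysine demethylase that removes methyl groups from histone H3 and works in repressor and activator complexes. Each condition had 1 ChIP library and 1 input library, so no value below has a replicate and no test between conditions was possible. Every interval is a 95% interval that covers counting error only, and every difference is one between single libraries.

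Six-family proteins are homeodomain transcription factors that bind the MEF3 site of muscle gene control regions. Eya proteins do not bind DNA themselves, and act as coactivators of the Six-family proteins with a phosphatase domain of their own. Together with Pax and Dach genes they form a network known from eye, kidney, ear and muscle development, and in muscle they act upstream of the myogenic regulatory factors. Lsd1 occupancy at these genes was compared here between the myogenic medium, the adipogenic medium and the adipogenic medium with the LSD1 transgene.

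The promoter sequences below show the 250 bases before the start site for 5 start regions of the members, from RefSeq on GRCm38.p6, chosen to set Six2, which had no peak, beside 4 members with a peak near the start. Letters are written 5′ to 3′ on the strand of the gene, and capitals mark matches on either strand to the MEF3 core TCAGGTT and to the GC box GGGCGG, and in Six5 to the AP-1 site TGANTCA. Eya1 and Eya2 had no entry in the promoter table.
Six2 promoter, chr17:85688255-85688504, minus strand: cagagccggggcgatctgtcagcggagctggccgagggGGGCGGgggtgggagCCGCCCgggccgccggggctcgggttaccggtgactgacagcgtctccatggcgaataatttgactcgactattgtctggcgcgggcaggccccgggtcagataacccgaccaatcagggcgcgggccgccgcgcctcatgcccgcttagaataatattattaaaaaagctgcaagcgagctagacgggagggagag
Six4 promoter, chr12:73113246-73113495, minus strand: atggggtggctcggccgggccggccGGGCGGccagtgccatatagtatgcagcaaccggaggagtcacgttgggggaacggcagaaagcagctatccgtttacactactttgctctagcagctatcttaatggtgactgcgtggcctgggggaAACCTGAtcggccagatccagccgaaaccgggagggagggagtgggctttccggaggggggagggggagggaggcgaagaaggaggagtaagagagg
Six5 promoter, chr7:19094294-19094543, plus strand: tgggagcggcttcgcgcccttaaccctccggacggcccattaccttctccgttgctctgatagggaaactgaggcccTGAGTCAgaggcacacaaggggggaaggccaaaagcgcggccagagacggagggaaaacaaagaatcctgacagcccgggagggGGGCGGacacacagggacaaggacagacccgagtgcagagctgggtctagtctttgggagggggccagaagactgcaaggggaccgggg
Eya3 promoter, chr4:132638796-132639045, plus strand: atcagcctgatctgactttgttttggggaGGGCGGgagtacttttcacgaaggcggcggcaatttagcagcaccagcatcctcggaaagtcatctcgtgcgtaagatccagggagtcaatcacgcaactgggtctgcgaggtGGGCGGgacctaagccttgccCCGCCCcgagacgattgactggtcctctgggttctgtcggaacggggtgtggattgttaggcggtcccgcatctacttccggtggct
Eya4 promoter, chr10:23349944-23350193, minus strand: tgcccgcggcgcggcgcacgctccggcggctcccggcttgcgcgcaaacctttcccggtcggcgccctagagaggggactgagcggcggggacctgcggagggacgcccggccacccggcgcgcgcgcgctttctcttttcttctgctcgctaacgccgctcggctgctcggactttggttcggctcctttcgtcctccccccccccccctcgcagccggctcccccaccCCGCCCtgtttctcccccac

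In the 300 bases from 250 before to 50 after the start, the observed-to-predicted CpG ratio was 1.13 for Six2, 1.02 for the upstream start of Eya4, 0.955 for Eya3, 0.713 for Six4 and 0.559 for Six5, all above the median of 0.384 over 32851 RefSeq promoters. The Six2 promoter, with the highest CpG ratio of these members, stood at percentile 98.7 of all promoters and lay in the window without a peak. The MEF3 core matched only the Six4 promoter among those shown, 97 bases before the start, and 4.07% of all promoters held it. A GC box was present in each of the 5, beside 35.7% of all promoters, and the AP-1 letters stood in Six5 alone of the 5, beside 7.81% of all promoters. A match is a match of letters and not a bound site.

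The sequences at the summits of 3 regions away from the promoters of the members are shown. These regions carried peaks in all 3 libraries. The printed bases lay in introns, those of the Six5 window in an intron of Dmpk, whose TSS the whole region also covers. A further Eya4 intronic region with peaks in all 3 libraries, chr10:23181365-23182643, is not printed. Each holds 121 bases of mm10 centred on the summit of the strongest peak, with capitals for the E-box CAGCTG and for the AP-1 site TGANTCA.
Six4 intronic region, chr12:73110427-73110547, plus strand: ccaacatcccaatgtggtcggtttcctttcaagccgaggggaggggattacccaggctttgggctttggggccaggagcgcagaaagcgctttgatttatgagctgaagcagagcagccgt
Six5 upstream region, chr7:19084484-19084604, plus strand: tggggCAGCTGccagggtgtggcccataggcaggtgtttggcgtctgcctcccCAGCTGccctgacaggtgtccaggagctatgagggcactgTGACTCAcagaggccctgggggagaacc
Eya4 intronic region, chr10:23202881-23203001, plus strand: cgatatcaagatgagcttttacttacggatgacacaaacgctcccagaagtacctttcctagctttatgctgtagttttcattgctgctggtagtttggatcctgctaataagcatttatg

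In the printed Six4 and Eya4 intronic sequences none of the 4 motifs matched, while the sequence upstream of Six5 held 2 E-boxes and 1 AP-1 match. The 121 bases of the Eya4 intronic region not printed held 1 E-box. These results rest on 121 bases each. Within 150 bp on either side of the same Six4 summit, 1 E-box, 1 AP-1 site and 1 GC box matched.

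At least 1 peak was listed for 6 of the 7 members in the myogenic library, for 5 in the adipogenic library and for 6 in the LSD1(OE) library. Over all 26180 genes the same kind of window held a peak for 62.5%, 41.2% and 53.9%, in the same order of libraries. Window length bore on these shares, since the Eya genes are long. The 4 Eya genes have windows of 100 kb or more, and 4, 3 and 4 of them had a peak, beside 76.6%, 55.9% and 69.2% of the 3139 genes with windows of that length. Six2, Six4 and Six5 have shorter windows, and 2, 2 and 2 of them had a peak, beside 60.6%, 39.2% and 51.8% of the 23041 genes with shorter windows. With 7 genes, these counts describe the members and set them apart from no other genes.

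A promoter peak, with its centre within 2000 bp of a TSS, was present at 6 members in myogenic medium, Six4, Six5, Eya1, Eya2, Eya3 and Eya4, beside 46.8% of all genes. It was present at 4 members in adipogenic medium, Six5, Eya1, Eya3 and Eya4, beside 27.0% of all genes. The same 4 members had one in LSD1(OE) cells, beside 37.3% of all genes. Six4 and Eya2 thus had a promoter peak in the myogenic list and in neither adipogenic list. Their myogenic promoter peaks were weak, with scores of 78.8 and 89.3 for Six4 and 78.0 for Eya2, where the score is 10 times −log10 of the MACS p-value, 50 is the lowest value listed, and 122 was the median of all myogenic peaks. With equal numbers of the strongest peaks from each list, the members with a promoter peak were Six5, Eya1, Eya3 and Eya4 in myogenic and in adipogenic medium, and Six5 and Eya4 in LSD1(OE) cells.

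The ChIP libraries held 46155625, 63915769 and 55193310 tags after the duplicate filter, and the inputs held 1.90, 1.28 and 1.82 times as many. Because peak calling brought the ChIP tags up to the size of the input, the same tag count reached a higher score in the myogenic and LSD1(OE) libraries, where the smallest listed peak had 27 and 30 tags, than in the adipogenic library, where it had 35. This bears on the count of member peaks directly. When each list was cut to its strongest 18893 peaks, the members held 11 myogenic, 14 adipogenic and 8 LSD1(OE) peaks, in place of 25, 14 and 23, so that the adipogenic list held the most and not the fewest. Without scaling up the ChIP tags the counts were 12, 11 and 8. The number of peaks therefore gives no order of the conditions, and the tag densities of the regions are compared further on.

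**Figure D1:**
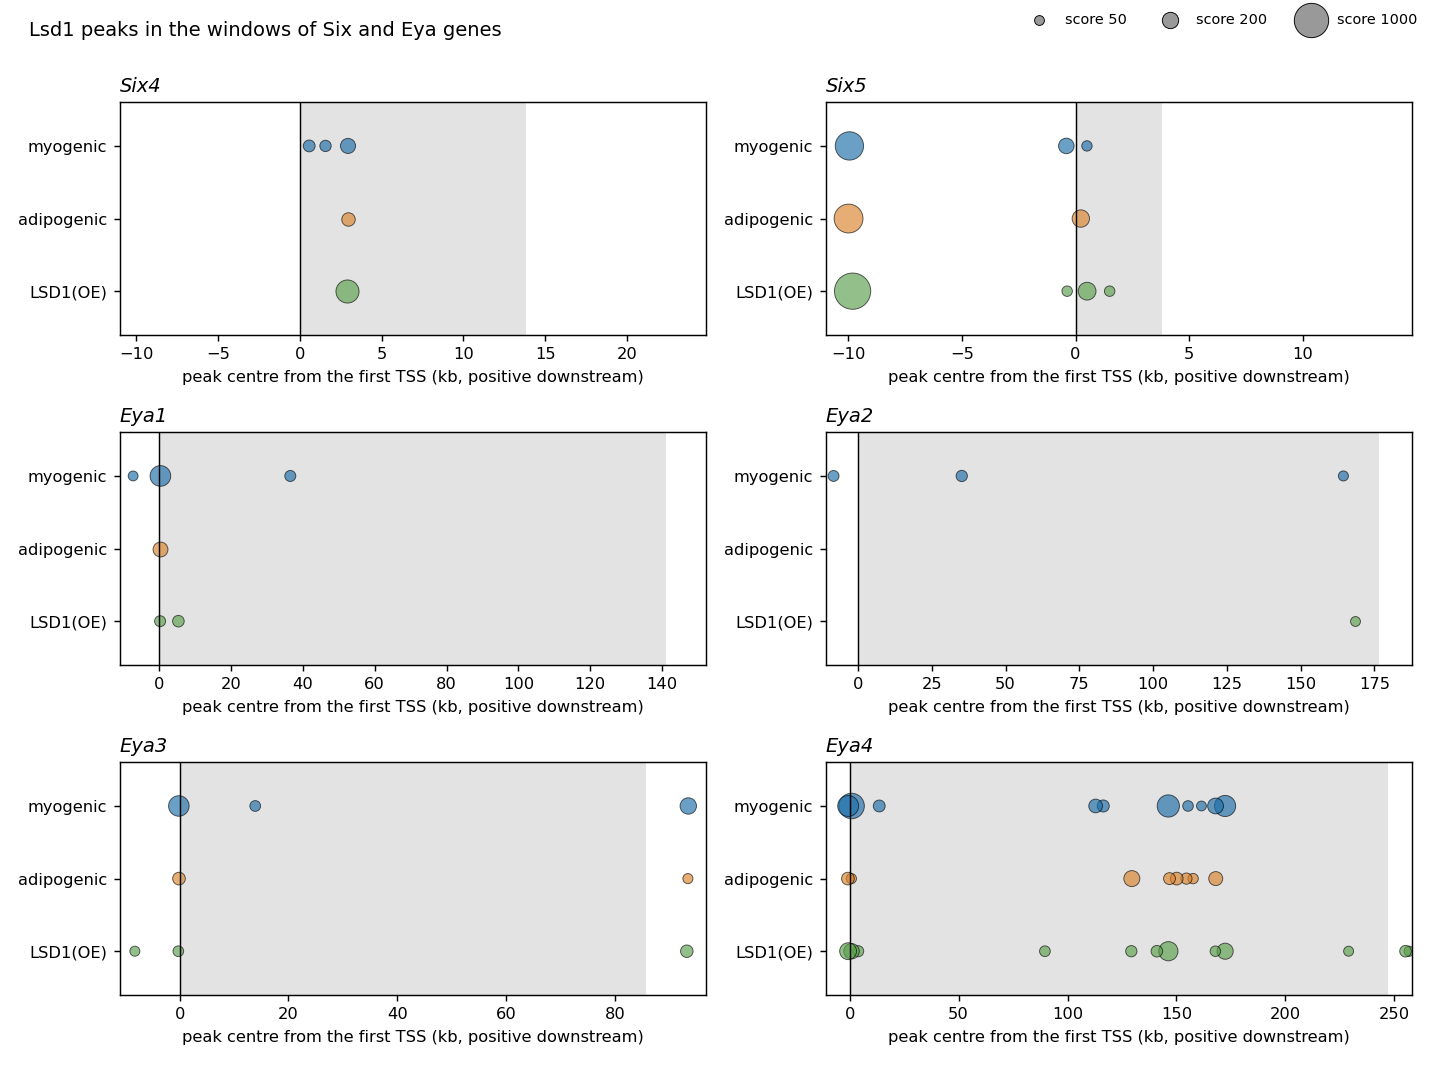
Lsd1 peaks in the windows of the 6 members with a peak, 1 panel a gene. The horizontal axis gives the distance of the peak centre from the first TSS in kb, positive in the direction of transcription, the grey band marks the gene, each row is 1 library, and the area of a circle grows with the peak score; the 10 myogenic, 8 adipogenic and 12 LSD1(OE) peaks of Eya4 gather at its start and in a stretch of introns far downstream, while the strongest peaks of Six5 lie almost 10 kb upstream.

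Six2, a factor known for maintaining kidney progenitor cells, lies at chr17:85684268-85688254 on the minus strand, and no library had a peak in its window. The nearest peak was 105.8 kb from the gene in the myogenic list, with 34 tags. In both adipogenic lists the nearest was 479.0 kb away. A region without a listed peak held fewer tags than the smallest listed peaks, or tags that did not pass the local background, and is not shown to lack Lsd1.

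Six4, at chr12:73099609-73113425 on the minus strand, had 1 region with a peak in all 3 libraries, at chr12:73109898-73111184 in an intron, 2770 bp (myogenic), 2773 bp (adipogenic) and 2704 bp (LSD1(OE)) downstream of the nearest Six4 TSS. Its peak had 67 tags in the myogenic library, 78 in the adipogenic library and 117 in the LSD1(OE) library. The density, in tags per kb of called peak per 1000000 filtered ChIP tags, was 1.30 (1.00 to 1.65), 1.21 (0.955 to 1.51) and 1.65 (1.36 to 1.97). The LSD1(OE) library was the highest of the 3 at this region. The scores were 165, 125 and 433, and the LSD1(OE) peak ranked above 87.8% of its list, against 60.2% for the myogenic and 55.7% for the adipogenic peak. LSD1(OE) stood at 1.36 times the adipogenic density (1.01 to 1.84), which is an interval above 1 that still holds the median ratio of 1.09 over all regions with peaks in all 3 libraries. By tags per 1000000 over the called peaks, which leaves their lengths out, it stood at 1.74 times the adipogenic value (1.29 to 2.34) and 1.46 times the myogenic value (1.07 to 2.0). At the start of Six4, the myogenic list had peaks of 43 tags, centred 398 bp downstream of a TSS, and of 37 tags, centred 1395 bp downstream.

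Six5, at chr7:19094544-19098345 on the plus strand, is a Six-family gene that directly follows Dmpk, the kinase gene of myotonic dystrophy. Around its TSS, at chr7:19093679-19095563, 90 tags in 2 peaks were listed in myogenic medium, 129 tags in 1 peak in adipogenic medium and 120 tags in 2 peaks in LSD1(OE) cells. The summed densities were 1.26, 1.29 and 1.26. These 3 values lay within counting error of each other, with ratios of 1.02 (0.776 to 1.36) for adipogenic over myogenic, 0.995 (0.751 to 1.32) for LSD1(OE) over myogenic and 0.972 (0.752 to 1.26) for LSD1(OE) over adipogenic. The intervals leave room for a ratio as low as 0.751 or as high as 1.36. A further weak peak of 38 tags, with a score of 61.9, was listed 1501 bp downstream of the TSS in LSD1(OE) cells only.

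The strongest peaks in any member window lay upstream of Six5, at chr7:19083584-19085605, with scores of 670 in the myogenic library, 695 in the adipogenic library and 1118 in the LSD1(OE) library. They had 162, 212 and 212 tags, and densities of 1.74 (1.48 to 2.03), 1.97 (1.72 to 2.26) and 2.20 (1.91 to 2.51). The TSS nearest these peaks was that of Dmpk, 733, 695 and 872 bp away, so they are promoter peaks of Dmpk that entered by distance to Six5. They stood at the edge of the rule, 9953, 9991 and 9814 bp from Six5, and the nearest peaks left out around other members were centred 10470 bp from Six4 and 10764 bp from Eya2, with 47 and 35 tags. A stronger adipogenic peak, of 127 tags and a score of 222, was left out 11208 bp from Eya4. The highest adipogenic score inside the Eya4 window was 190. The LSD1(OE) density at the Dmpk region was 1.26 times the myogenic density (1.02 to 1.56), at percentile 95.7 of the 11664 regions with peaks in all 3 libraries, and without the called length the ratio was 1.09 (0.888 to 1.35).

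Since the Six5 window held the highest peak score, its pattern of summed peak tags was compared with that of all genes whose windows do not overlap it. Its window summed to 5.46 tags per 1000000 ChIP tags in the myogenic library, 5.34 in the adipogenic library and 6.70 in the LSD1(OE) library, most of it from the Dmpk region. The nearest genes over the 3 libraries, by Euclidean distance of log2(1 + tags per 1000000), were Lnx2 with 5.11, 5.30 and 6.65 (distance 0.0805), BC005624 with 5.57, 4.91 and 6.18 (0.144), and Abcd2 with 5.37, 5.27 and 7.57 (0.156).

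**Figure D2:**
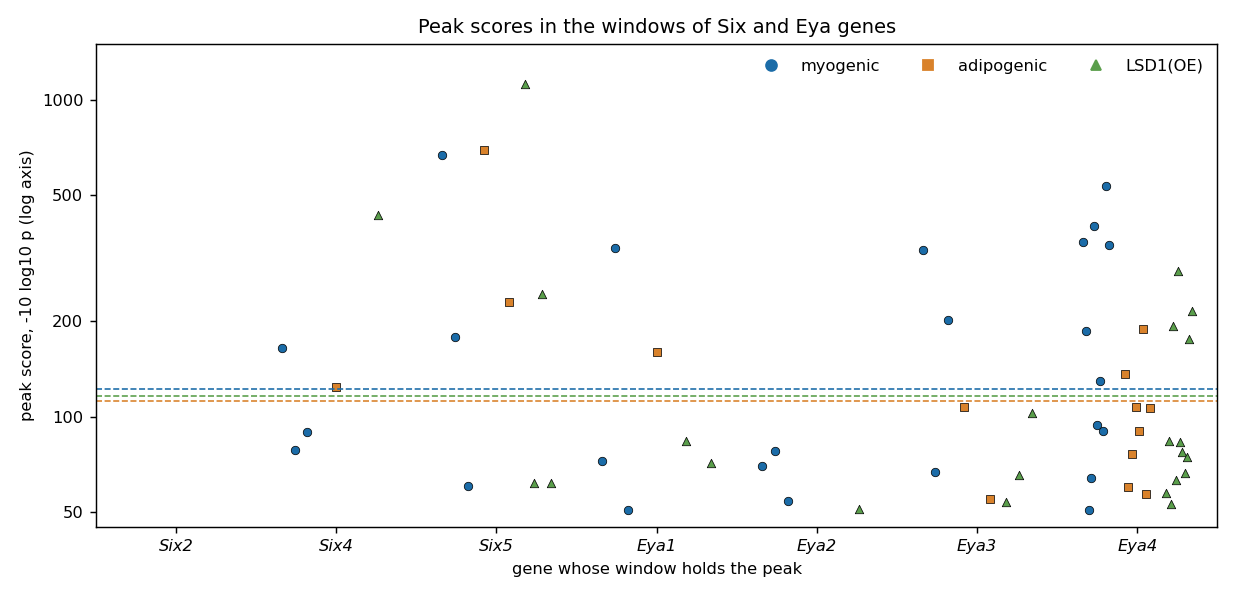
Score of every peak in the window of each of the 7 members, on a log axis, with 1 symbol a peak and 1 colour a library. Dashed lines give the median score of all peaks of each library (122, 112 and 116); Six2 has no symbol, the Six5 window reaches 1118, and the Eya2 peaks all lie below the medians.

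Eya1, at chr1:14168958-14310199 on the minus strand, is mutated in branchio-oto-renal syndrome in humans. Its promoter region, chr1:14309314-14310803, had a peak in all 3 libraries, centred 325, 80 and 238 bp downstream of the TSS and over an exon, in the order myogenic, adipogenic and LSD1(OE). The peak had 86 tags over 1122 bp, 105 tags over 1368 bp and 40 tags over 678 bp. The densities were 1.66 (1.33 to 2.05), 1.20 (0.982 to 1.45) and 1.07 (0.764 to 1.46). The myogenic density was the highest, and the adipogenic and LSD1(OE) densities were at 0.723 (0.539 to 0.973) and 0.644 (0.431 to 0.947) of it. How far the adipogenic libraries lay apart depended on the called length. By density LSD1(OE) was at 0.890 of the adipogenic library (0.602 to 1.29), and by tags per 1000000 over the called peaks at 0.441 of it (0.299 to 0.641) and at 0.389 of the myogenic library (0.260 to 0.572), while the adipogenic library was at 0.882 of the myogenic (0.657 to 1.19). The other Eya1 peaks were weak and in 1 library each: 33 and 29 tags in myogenic medium, 36.5 kb downstream and 7.27 kb upstream of the TSS, and 49 tags in LSD1(OE) cells, 5.33 kb downstream.

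Eya2, at chr2:165595028-165771727 on the plus strand, had no peak with a score above 78.0. Six4, Eya1, Eya3 and Eya4 each reached at least 335 in 1 of the lists. The peaks nearest the Six5 TSS reached 244.5, with the Dmpk region left aside. In myogenic medium it had 3 peaks, of 41 tags 8311 bp upstream of the first TSS, of 36 tags at an internal TSS (181 bp before it), and of 29 tags far in an intron. In adipogenic medium it had none, and in LSD1(OE) cells 1 intronic peak of 33 tags. The Eya2 scores ranged from 51.3 to 78.0, and no Eya2 region was called in more than 1 library. The intronic peaks of both libraries lay about 4 kb apart and closer to the TSS of Zmynd8, which encodes a chromatin reader, than to an Eya2 TSS, although still 98641 and 94564 bp from it.

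Eya3, at chr4:132639046-132724765 on the plus strand, had the same order of densities at its promoter as Eya1, with the myogenic library highest and LSD1(OE) lowest. The region chr4:132638288-132639533 had 96 tags over 1246 bp in myogenic medium, 74 over 1009 bp in adipogenic medium and 36 over 613 bp in LSD1(OE) cells. The densities were 1.67 (1.35 to 2.04), 1.15 (0.901 to 1.44) and 1.06 (0.745 to 1.47), with the peak centres 136, 108 and 233 bp before the TSS, inside the promoter shown above. The adipogenic density was 0.687 of the myogenic (0.501 to 0.941) and the LSD1(OE) density 0.637 of it (0.422 to 0.944). LSD1(OE) over adipogenic was 0.927 (0.605 to 1.4) by density and 0.563 (0.367 to 0.850) without the called length. The scores followed the same order, at 335, 107 and 65.5.

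A second region of the Eya3 window, chr4:132731846-132732989 in the downstream flank, lay 19, 91 and 291 bp from the TSS of Xkr8, a phospholipid scramblase gene that runs toward Eya3. It had 62, 53 and 51 tags and densities of 1.45, 0.977 and 1.13. The adipogenic library was at 0.672 of the myogenic density (0.457 to 0.985). The remaining Eya3 peaks were an intronic one of 28 tags in myogenic medium and one of 34 tags in the upstream flank in LSD1(OE) cells.

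Eya4, at chr10:23102962-23349943 on the minus strand and the longest of the members, is known for roles in hearing and in the heart. It held 10 peaks in the myogenic library, 8 in the adipogenic library and 12 in the LSD1(OE) library, which merged into 19 regions. Of these, 4 were called in all 3 libraries, 3 in 2 libraries and 12 in 1 library. With 267 kb its window is the longest, and per 100 kb it held 3.75, 3.00 and 4.49 peaks, beside 2.51, 1.13 and 1.92 over the windows of all genes.

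Peaks stood on either side of the Eya4 start. The region downstream of it, chr10:23348115-23349955, had 140 tags in the myogenic library, 56 in the adipogenic library and 83 in the LSD1(OE) library, with densities of 1.65 (1.39 to 1.94), 0.971 (0.734 to 1.26) and 1.34 (1.07 to 1.66). The adipogenic peak was the lowest of the 3 and was called over 902 bp, against 1841 and 1121 bp. Adipogenic over myogenic was 0.590 (0.424 to 0.809), at percentile 6.21 of all regions shared by the 3 libraries, and LSD1(OE) over adipogenic was 1.38 (0.972 to 1.97), at percentile 92.0. Without the called length these ratios were 0.289 (0.208 to 0.396) and 1.72 (1.21 to 2.45). The region before the start, chr10:23349958-23351292, had 95, 75 and 91 tags and densities of 1.58, 1.14 and 1.25. There, too, the adipogenic density was below the myogenic, at 0.721 (0.526 to 0.986), and LSD1(OE) over adipogenic was 1.09 (0.795 to 1.50), or 1.41 (1.02 to 1.93) without the called length. The scores of the pair ran 536 and 349 in myogenic medium, 57.1 and 107 in adipogenic medium, and 177 and 215 in LSD1(OE) cells.

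Introns held 15 of the 19 Eya4 regions, and 11 of them lay in a stretch from 112.9 to 172.3 kb downstream of the first TSS. The intronic peaks numbered 8, 6 and 8, with median scores of 112, 98.9 and 76.0. The one with the highest score in the myogenic and LSD1(OE) lists, at chr10:23202633-23204727, had 134, 69 and 125 tags over 2071, 997 and 2008 bp, and densities of 1.4, 1.08 and 1.13, with ratios to the myogenic library of 0.772 (0.569 to 1.04) and 0.805 (0.625 to 1.03). The adipogenic peak there was the narrowest, and without the called length LSD1(OE) over adipogenic moved from 1.04 to 2.1 (1.55 to 2.86). This is the intronic Eya4 sequence printed above. At chr10:23181365-23182643, 71, 87 and 42 tags over 1274, 1132 and 769 bp gave densities of 1.21, 1.20 and 0.990, and no density ratio had an interval that excluded 1. Without the called length LSD1(OE) was at 0.495 of the myogenic (0.329 to 0.735) and 0.559 of the adipogenic library (0.377 to 0.817). A neighbouring region at chr10:23176756-23178497 had 115 tags in myogenic medium and 96 in LSD1(OE) cells, at 0.715 of the myogenic density (0.539 to 0.946), and no adipogenic peak. A region at chr10:23219725-23221134 had 113 tags in adipogenic medium, the adipogenic intronic peak with the highest score (190), 43 in LSD1(OE) cells and no myogenic peak.

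**Figure D3:**
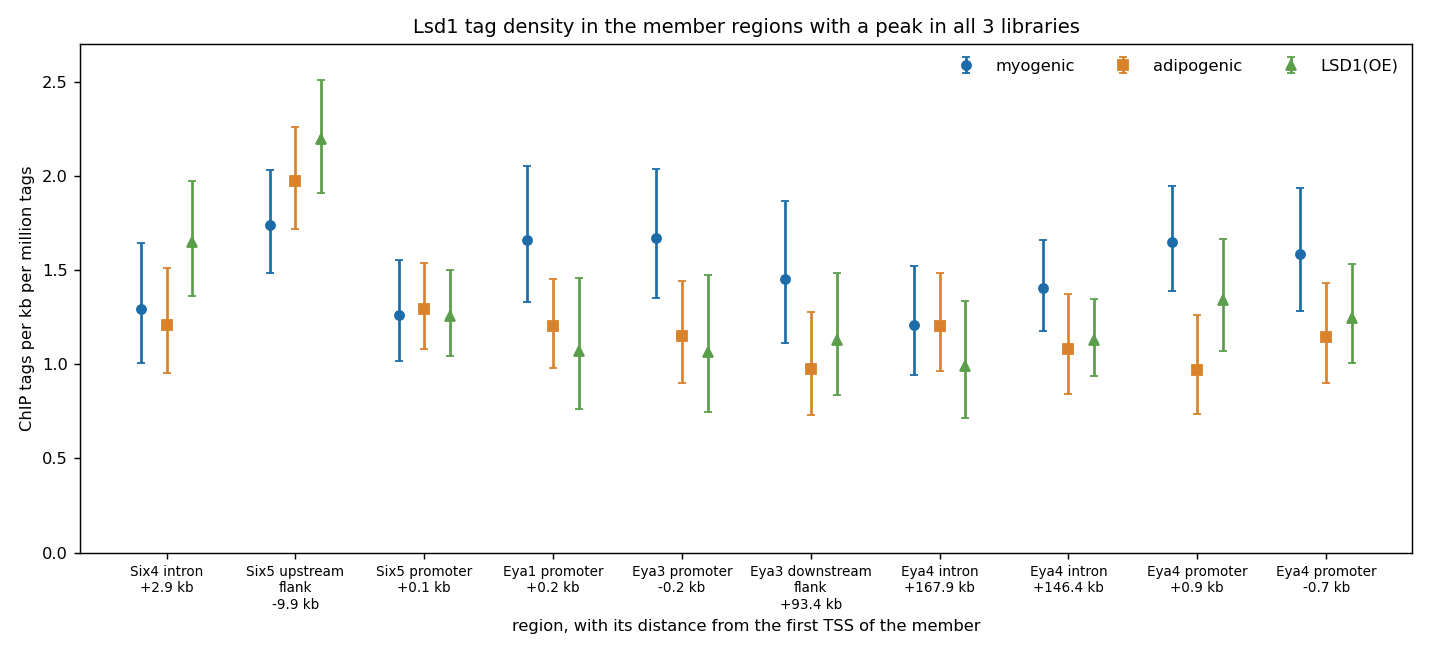
ChIP tags per kb of called peak and per 1000000 filtered ChIP tags at the 10 member regions with a peak in all 3 libraries, with 95% Poisson intervals that cover counting error only. Blue circles are myogenic medium, orange squares adipogenic medium and green triangles LSD1(OE) cells; myogenic medium is highest at the promoters of Eya1, Eya3 and Eya4, while the 3 libraries are level at the Six5 promoter and LSD1(OE) is highest at the Six4 intron and upstream of Six5.

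Merged over libraries by an overlap of at least 1 bp, the 62 member peaks formed 37 regions. All 3 libraries called 10 of them (27.0%), exactly 2 libraries called 3 (8.11%) and 1 library called 24 (64.9%), beside 20.6%, 19.0% and 60.4% of the 56729 regions of the genome. Of the 24, 12 were myogenic, 2 adipogenic and 10 from LSD1(OE) cells. They were weak peaks, with 27 to 68 tags and a median score of 71.3, and 22 of them scored under 100. The 32 member peaks in the regions called by all 3 libraries had a median score of 177, and 8 scored under 100. The genome showed the same split, with median scores of 70.4 for regions of 1 library and 225 for regions of all 3. A region in 1 list only was thus mostly one near the lower limit of that list, and no difference between conditions can be read from it. As a whole the member peaks had median scores of 94.0, 108 and 77.2, beside 122, 112 and 116 for all peaks of the 3 libraries.

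At the 10 shared regions the ratios are given by the family of the window, and the difference between the families was not tested. The Six-family set includes the Dmpk region and the Eya set the Xkr8 region, both at the TSS of a neighbouring gene. Adipogenic over myogenic was between 0.590 and 0.996 at the 7 regions in Eya windows, with a median of 0.721. At 5 of them the interval lay below 1: the promoters of Eya1 and Eya3, both regions at the Eya4 start, and the Xkr8 region. Both Eya4 regions nearly touch and are not separate sites. At the Six4 intron, the Dmpk region and the Six5 promoter it was 0.933, 1.13 and 1.02, so that the ranges of the families overlapped. The median of the 11664 regions shared over the genome was 0.791, so densities were lower in adipogenic than in myogenic medium at most regions, and 11.3% of them had a ratio above 1. By density, no interval in an Eya window stood apart from this median. In the Six-family windows only the Dmpk region had a density interval that lay above it (0.920 to 1.4).

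LSD1(OE) over myogenic was between 0.637 and 0.820 at the 7 regions in Eya windows, with a median of 0.787. At the Six4 intron, the Dmpk region and the Six5 promoter it was 1.27, 1.26 and 0.995, beside a genome median of 0.866. By density, the intervals of the Six4 intron (0.934 to 1.74) and the Dmpk region lay above that median, and no member interval lay below it. LSD1(OE) over adipogenic had a median of 1.07 over the 10 regions, beside 1.09 over the genome, and by density no member interval excluded 1.09. By order of the densities, 4 regions had myogenic highest and adipogenic lowest, as did 48.3% of all shared regions, and 3 had myogenic highest and LSD1(OE) lowest, the Eya1 and Eya3 promoters and an Eya4 intron, as did 23.8% of all. The comparisons share libraries, so they are not independent of each other.

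The called length enters each density, and a peak called over fewer bases also collects fewer tags, so neither measure takes the same bases in every library. Tags per 1000000 were then summed over the called peak, without the length. Adipogenic over myogenic ranged from 0.289 to 0.885 in Eya windows and from 0.841 to 1.04 in Six-family windows. LSD1(OE) over myogenic ranged from 0.314 to 0.801 and from 1.09 to 1.46, beside genome medians of 0.693 and 0.811, in this order. The first ratio had an interval below its median just downstream of the Eya4 start (0.208 to 0.396). The Eya4 intron 146.4 kb downstream had one as well (0.274 to 0.501). Above it stood the Dmpk region and the Six5 promoter. The second ratio had intervals below its median at the Eya1 and Eya3 promoters, downstream of the Eya4 start and at the Eya4 intron 167.9 kb downstream. All 3 regions in Six-family windows had intervals above it. LSD1(OE) over adipogenic moved most, from between 0.823 and 1.38 by density to between 0.441 and 2.1, beside a genome median of 1.19. Its interval lay below 1 at 3 regions, the Eya1 and Eya3 promoters and the Eya4 intron 167.9 kb downstream. It lay above 1 at 4 regions, the Six4 intron, both regions at the Eya4 start and the Eya4 intron 146.4 kb downstream. Of these, the region before the Eya4 start had an interval that held 1.19 (1.02 to 1.93), and the others lay above it.

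**Figure D4:**
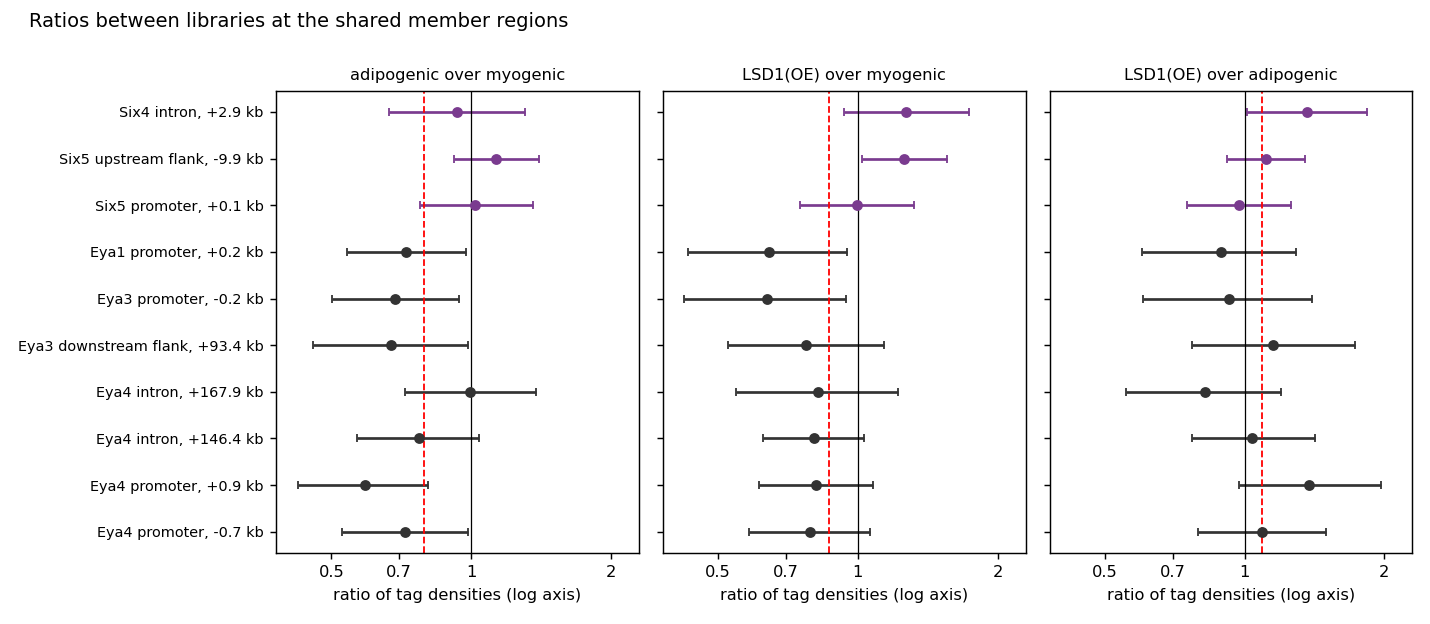
Ratios of tag densities between libraries at the 10 member regions shared by all 3, on a log axis, with 95% intervals for counting error; purple marks regions in Six-family windows and black those in Eya windows. The black line is 1 and the red dashed line is the median of the 11664 regions shared over the genome (0.791, 0.866 and 1.09), and every Eya ratio to the myogenic library lies below 1.

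The letters around the summits were compared within 150 bp on either side. Of the 62 member peaks, 21 were promoter peaks of a member, with a median CpG ratio of 0.784, and the other 41 had a median of 0.234. Over all promoter and other peaks of the 3 libraries the medians were 0.720 to 0.733 and 0.192 to 0.203. For these, a TSS of any gene made a promoter peak. The member peaks at the TSSs of Dmpk and Xkr8 stand among the 41, so the kinds are not quite alike. The MEF3 core bound by Six-family factors was present in 2 of 25 myogenic, 0 of 14 adipogenic and 1 of 23 LSD1(OE) member peaks, beside 4.09%, 4.01% and 4.21% of all peaks. The 3 peaks with it lay in the Eya2 upstream flank, in an Eya2 intron and in the Eya4 downstream flank. E-boxes, the sites of MyoD-type factors, were present in 17 of the 41 other peaks and in 0 of the 21 promoter peaks of members. Over all peaks the shares were 28.6 to 34.5% away from promoters and 19.3 to 20.0% at promoters. Among the 41, the Dmpk peaks held 1, 2 and 2 E-boxes and the Xkr8 peaks 0, 2 and 2, in the order myogenic, adipogenic and LSD1(OE). By a TSS of any gene, E-boxes were thus present in promoter peaks too. GC boxes were present in 11 of the 21 promoter peaks, beside 52.9 to 56.0% over all promoter peaks. Peaks of the same region in different libraries share their sequence, so these counts hold fewer separate sequences than peaks.

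Of 7 other genes of the Pax-Six-Eya-Dach network, 3 had a peak in the myogenic list, 2 in the adipogenic list and 5 in the LSD1(OE) list, and 1, 1 and 1 had a promoter peak, beside the 62.5%, 41.2% and 53.9% of all genes with a peak and the 46.8%, 27.0% and 37.3% with a promoter peak. Sobp, which encodes a protein that binds Six-family factors, had 9, 3 and 6 peaks, with highest scores in its window of 670, 234 and 350. The promoter peaks were those of Sobp, but its highest adipogenic peak lay 178626 bp from its TSS. Pax3, a marker of muscle progenitors, had 2 peaks in each library and none at its promoter, with highest scores of 132, 70.4 and 342. Pax7, the satellite cell factor, had 1, 0 and 1 peaks, with scores of 55.5 and 85.5. Six6 and Dach1 had 1 weak peak each in LSD1(OE) cells only, with scores of 51.4 and 56.3, and Six3 and Dach2 had none.

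Of 11 genes known as targets of Six-Eya factors, 10, 8 and 9 had a peak, and 8, 4 and 7 a promoter peak, again beside 62.5%, 41.2% and 53.9% of all genes with a peak and 46.8%, 27.0% and 37.3% with a promoter peak. Highest scores were reached at Gdnf, a growth factor gene, with 2579, 1291 and 2245, and at Ezr, which encodes the membrane linker ezrin, with 595, 468 and 1155. The cyclin gene Ccnd1 had 588, 141 and 386. Each of these 3 had a promoter peak in all 3 libraries.

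Among the muscle genes of this list, Myod1 had 3 peaks in myogenic medium, the highest with a score of 106, and 0 in both adipogenic libraries. Myog had 6, 2 and 1 peaks, with highest scores of 162, 60.5 and 55.2. The troponin gene Tnnc1 had 3, 0 and 3 peaks, with highest scores of 531 in myogenic medium and 105 in LSD1(OE) cells. The adjacent genes Myf5 and Myf6 share part of their windows and had 2 and 4 peaks in myogenic medium, 2 and 3 in adipogenic medium and 1 and 3 in LSD1(OE) cells. Aldoa had 4, 3 and 2 peaks, with highest scores of 333, 122 and 362, and Ckm had 1, 1 and 1, with scores of 322, 127 and 297. The Ckm peaks were not at its promoter and lay 10324, 10289 and 10342 bp from its TSS. Sall1, a kidney target, had no peak in any library.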

How the data were processed

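Lsd1 ChIP-seq of C2C12 cells was analysed from the deposited peak lists. Per the file headers, the authors ran MACS 1.4.2 on mm10 with 50 bp tags, a p cut-off of 1e-05 and the matching input as control. The labels name another MACS version. The aligner was Bowtie2 per the labels and Bowtie per the study's methods. The deposited BED files list the same peaks and were not used. The deposited tag count of a peak is a whole-number count after duplicate filtering, without normalization. Scores, as deposited, are 10 times −log10 of the p-value and were computed by the authors after scaling the ChIP tags up to the input. The deposited fold enrichment, a ratio over the local background, was not on the same scale in every library and was not compared, and the deposited FDR in percent was used in 1 alternative.

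Curated RefSeq transcripts of GRCm38.p6 gave 31647 TSSs of 26180 genes. Peaks were placed by their centre, regions were merged by an overlap of 1 bp, and a promoter was 2000 bp either side of a TSS. Density was tags per kb of called peak per 1000000 filtered ChIP tags, with exact Poisson intervals and, for ratios, exact conditional binomial intervals. The libraries held 46155625 to 63915769 ChIP tags. All 7 members with every peak, the genes of 2 other lists, the genes whose TSS was nearest a member peak and the 3 genes most similar to the member with the highest score were named. Members and lists were chosen with earlier results of these data known. 1 gene of the list of targets is not reported here. Samples were grouped by their titles. Motifs were searched as exact letters. Alternatives were stricter peak limits, equal peak numbers, unscaled ChIP tags, other windows and other placements. The placement steps were tested on simulated peaks. Python 3.11.15, pandas 2.3.3, NumPy 2.4.6, SciPy 1.17.1 and pysam 0.24.0 were used.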

Additional observations from a re-analysis of the deposited data

How the results depend on the processing

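The 4 results in counts were recomputed under other settings, and 78 of 102 values stayed within 1.5 times the reported one. An FDR of at most 0.1% left 12 myogenic, 6 adipogenic and 7 LSD1(OE) member peaks, 3 members with a peak in LSD1(OE) cells, and 2 and 2 members with a promoter peak in the adipogenic and LSD1(OE) lists. A score of at least 100 left 12, 9 and 8 member peaks and 2 members with an LSD1(OE) promoter peak, and 4, 7 and 3 regions in 3, 2 and 1 libraries. Equal numbers of strongest peaks left 11 myogenic and 8 LSD1(OE) peaks, 2 members with an LSD1(OE) promoter peak and 4 regions in 1 library. Without scaling up the ChIP tags, 12 myogenic and 8 LSD1(OE) peaks remained, with 2 members with an LSD1(OE) promoter peak and 5, 6 and 4 regions in 3, 2 and 1 libraries. These 4 settings keep fewer peaks by construction. Without flanks, 15 LSD1(OE) member peaks remained. Placing peaks by summit or overlap, other flanks and promoter widths, the nearest TSS, all RefSeq transcripts, a reciprocal overlap of 50%, and, added after seeing the data, leaving out peaks nearest the TSS of another gene moved no other count by over 1.5 times. Leaving the called length out of the 30 ratios at shared regions, also added after seeing the data, moved 9 beyond their counting interval. It changed the direction of no ratio whose interval excluded 1. Without the length, the interval held 1 for adipogenic over myogenic at the Eya1 promoter (0.657 to 1.19). It also did for LSD1(OE) over myogenic at the Dmpk region (0.888 to 1.35). LSD1(OE) over adipogenic had an interval excluding 1 at 1 region by density. Without the length, its interval lay below 1 at 3 regions and above 1 at 4. The weakest peak listed had 27, 35 and 30 tags, which limits what these libraries show. No paired analysis was possible because each condition had 1 ChIP library and no replicate.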
